A study of Mus musculus with 6 samples.

Results

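The neuronal pentraxins Nptx1, Nptx2 and Nptxr, which are 3 of the 55471 genes in the count table, were followed through the hippocampus of p300-ifKO mice and control mice. They were chosen by name as the neuronal branch of the pentraxin family. All 3 had reads in each of the 6 libraries and passed the filter on low counts.

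Neuronal pentraxins are multimeric proteins of excitatory synapses that bind the extracellular part of AMPA receptors, the receptors that carry most fast glutamatergic transmission. Nptx1 and Nptx2 (also known as NP1 and Narp) are secreted, whereas Nptxr is anchored in the membrane and assembles with both of them. In the hippocampus, Nptx2 is known as an activity-induced gene whose product gathers AMPA receptors on interneurons, Nptx1 takes part in the formation of new synapses, and the shed form of Nptxr takes part in the removal of AMPA receptors from the synapse.

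RNA was taken by the authors from the hippocampus of individual C57BL/6 mice (C57BL/6J males in the methods of the study) that were 3 to 6 months old per the labels, with 1 library per mouse and 3 mice per genotype. In p300-ifKO mice (inducible forebrain knockout; Ep300 flox alleles with Camk2a-creERT2), tamoxifen, given 5 times at 20 mg/ml by the intragastric route, activated the Cre recombinase in the excitatory neurons of the adult forebrain, and tissue was collected about a month later. Other cells of the tissue keep Ep300, which encodes the acetyltransferase p300. Control mice were littermates given tamoxifen and, in the protocol text, lacked creERT2, although the control labels name this driver as well. The question put to these data was whether the loss of p300 changes the expression of neuronal pentraxins.

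The libraries were first examined as a whole. Normalized counts (counts divided by the size factor of the library) of Ep300 were 1545, 1474 and 2334 in controls and 478, 1350 and 912 in p300-ifKOs. All 3 p300-ifKO libraries lay below all 3 control libraries (log2 fold change −0.97, SE 0.33), but the adjusted p in DESeq2 was 0.991. Its paralog Crebbp had a log2 fold change of −0.055 (SE 0.11). Esr1 and Arsi, which mark the creERT2 transgene and its Camk2a flank, rose in p300-ifKO mice by 4.96 and 2.56 on the log2 scale. Normalized counts of Esr1 were 109, 87 and 108 in controls and 4217, 2416 and 2868 in p300-ifKOs. The groups thus differed in the transgene too, and its part was not tested. In DESeq2, Esr1 and Arsi were the only genes called, 2 of 32773 (0.0061%). The count became 921 (7.99% of 11533) without p300-ifKO replicate 2, the p300-ifKO library with the most Ep300. All 57 marker genes of the 12 hippocampal cell classes and neighboring tissues examined had reads in every library, and 0 of them were called. For 17054 genes, the deviation of each library from the mean followed transcript length, with Spearman's rho from 0.16 to 0.41 in the control libraries, and of −0.50, 0.41 and −0.28 in p300-ifKO replicates 1, 2 and 3. Replicate 2 was thus the only p300-ifKO library with a length trend like that of the controls. Leaving it out aligned genotype with this trend and also took out the p300-ifKO library with the most Ep300. Within each group, the library with the highest rho was also the one with the most Ep300. Per the paper, p300-ifKO mice express a truncated p300, so reads of the whole gene are not a direct measure of its loss. The length trend and the level of Ep300 cannot be told apart in any value given without replicate 2, and the part of either was not tested.

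The 3 genes lie on different chromosomes. Nptx1 (ENSMUSG00000025582) spans chromosome 11, 119538719 to 119547753 on the minus strand of GRCm38. Nptx2 (ENSMUSG00000059991) spans chromosome 5, 144545902 to 144557478 on the plus strand. Nptxr (ENSMUSG00000022421) spans chromosome 15, 79786351 to 79804766 on the minus strand, on the chromosome of the targeted gene and 1781 kb away from it. The coding transcript has 5 exons in each gene, and the exonic length is 5217 bases for Nptx1, 2536 for Nptx2 and 5170 for Nptxr.

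Reads of the 3 genes can be told apart from one another. Their coding sequences were 68.5% identical between Nptx1 and Nptx2, 67.1% between Nptx1 and Nptxr and 67.6% between Nptx2 and Nptxr. Of the exonic stretches of 50 bases, the read length, 0 of 5168 in Nptx1 and 0 of 2487 in Nptx2 were found in the exons of another gene. In Nptxr, 848 of 5117 stretches (16.6%) were shared, 843 of them with Npcd (ENSMUSG00000089837), a readthrough gene on the same strand that joins exons of Cbx6 and Nptxr. Npcd had 0 counts in all 6 libraries, and its exons cover 890 of the exonic bases of Nptxr (17.2%). Npcd has 0 exonic bases outside the exons of Nptxr and Cbx6. Its count of 0 is what results when reads in shared bases are given to no gene, so the Nptxr count of every library likely lacks them. Levels per length of Nptxr that use all 5170 bases are then too low.

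Nptxr was the most abundant neuronal pentraxin of the hippocampus and Nptx2 the least abundant. In reads per kb of exon, scaled to the total count of the library (RPKM), the level of Nptxr was 199, 210 and 178 in control replicates 1 to 3 and 187, 180 and 190 in p300-ifKO replicates 1 to 3. The level of Nptx1 was 120, 135 and 125 in control mice and 105, 135 and 126 in p300-ifKO mice. The level of Nptx2 was 8.52, 6.94 and 7.97 in control mice and 8.19, 6.27 and 6.38 in p300-ifKO mice. The order Nptxr, Nptx1, Nptx2 held in each library, and the ranges of neighbors in this order did not touch.

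The membrane-anchored member was thus the larger part of the neuronal pentraxin mRNA, and the activity-induced member a small one. In control mice, Nptxr made up 59.2% ± 1.77 (SD, n = 3) of the summed level per length, Nptx1 38.4% ± 1.75 (SD, n = 3) and Nptx2 2.38% ± 0.352 (SD, n = 3). In p300-ifKO mice the shares were 59.0% ± 3.14, 38.7% ± 3.54 and 2.22% ± 0.440 (SD, n = 3). When only the 4280 bases of Nptxr outside Npcd were taken as its length, its share was 63.6% in control and 63.5% in p300-ifKO mice. Among the 18074 protein-coding genes with a read, Nptxr ranked between 101 and 147 by level per length, Nptx1 between 172 and 362 and Nptx2 between 5355 and 6627. Within a library, Nptx1 exceeded Nptx2 by 12.9-fold to 21.6-fold and Nptxr exceeded Nptx2 by 22.4-fold to 30.3-fold. Nptxr exceeded Nptx1 by 1.33-fold to 1.78-fold. With the 4280 bases outside Npcd as its length, Nptxr exceeded Nptx2 by 27.1-fold to 36.5-fold and Nptx1 by 1.61-fold to 2.15-fold.

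**Figure D1:**
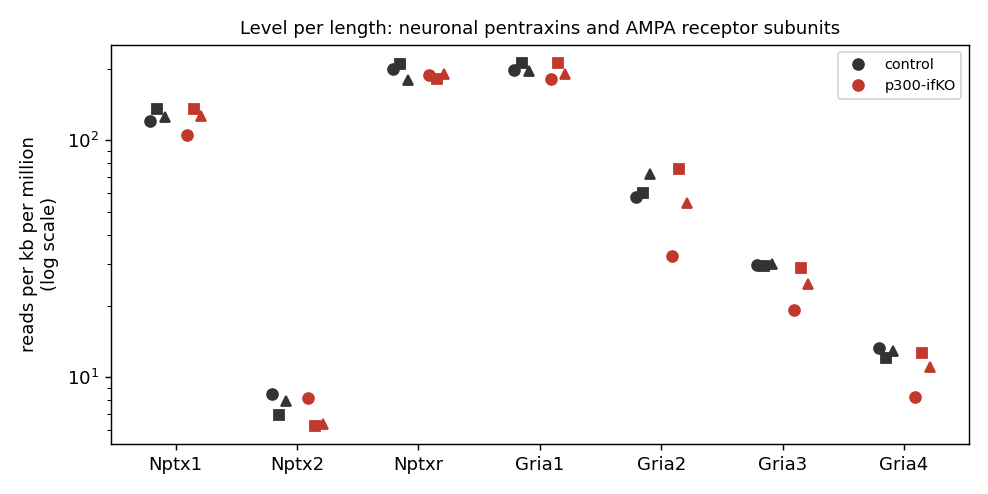
Level per length (RPKM, reads per kb of exon scaled to the total count, log scale) of the 3 neuronal pentraxins and the 4 AMPA receptor subunit genes in each library, with circles, squares and triangles for replicates 1, 2 and 3. Nptxr and Nptx1 lie with Gria1 above 100, and Nptx2 lies below 10 in all 6 libraries.

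None of the 3 neuronal pentraxins was called between p300-ifKO and control mice. Called genes made up 0.0061% of all genes tested in DESeq2 and 0.0117% in edgeR. The fitted change was below 0 for each member, as it was for 50.7% of genes with a mean of at least 100 normalized counts, and 0 of the 3 had an unadjusted p under 0.05 (1.32% of all genes in DESeq2). The groups overlapped for all 3, whereas 3.42% of genes were lower in p300-ifKOs without overlap. Fewer cells of a type and less RNA per cell cannot be told apart in bulk tissue, and this holds for each comparison here.

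Normalized counts of Nptx2, the activity-induced ligand, were 539, 448 and 503 in controls and 517, 399 and 396 in p300-ifKOs. Replicates 2 and 3 of p300-ifKO lay below all control libraries and replicate 1 lay among them, so the groups overlapped. Mean ± SD over 3 mice was 497 ± 46.0 in controls and 437 ± 68.6 in p300-ifKOs. This gave a log2 fold change of −0.18 (SE 0.17), with adjusted p = 0.991 in DESeq2 and 0.745 in edgeR, and the exact two-sided permutation test gave p = 0.3, where 3 against 3 cannot go below 0.1. The 95% interval, −0.52 to 0.16, covered changes from −30.4% to 11.3%.

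Normalized counts of Nptx1, the constitutive secreted ligand, were 15643, 17918 and 16296 in controls and 13664, 17760 and 16150 in p300-ifKOs. The lowest value was that of p300-ifKO replicate 1, and the other p300-ifKO libraries lay within the control range. Mean ± SD over 3 mice was 16619 ± 1171 in controls and 15858 ± 2064 in p300-ifKOs. The log2 fold change of −0.068 (SE 0.14) had an adjusted p = 0.991 in DESeq2 and 0.833 in edgeR, and the exact permutation test gave p = 0.6. The interval went from −0.35 to 0.21, or from −21.3% to 15.8%. Without p300-ifKO replicate 1 the log2 fold change was 0.027, so its sign rested on that library.

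Normalized counts of Nptxr, the membrane-anchored partner, were 25596, 27605 and 22970 in controls and 24077, 23433 and 24070 in p300-ifKOs. The p300-ifKO libraries lay close together inside the control range. Mean ± SD over 3 mice was 25390 ± 2324 in controls and 23860 ± 370 in p300-ifKOs. The fitted log2 change was −0.090 (SE 0.12), where DESeq2 gave an adjusted p = 0.991 and edgeR 0.752, and the exact permutation test gave p = 0.4. The interval went from −0.32 to 0.14, or from −19.7% to 10.04%.

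**Figure D2:**
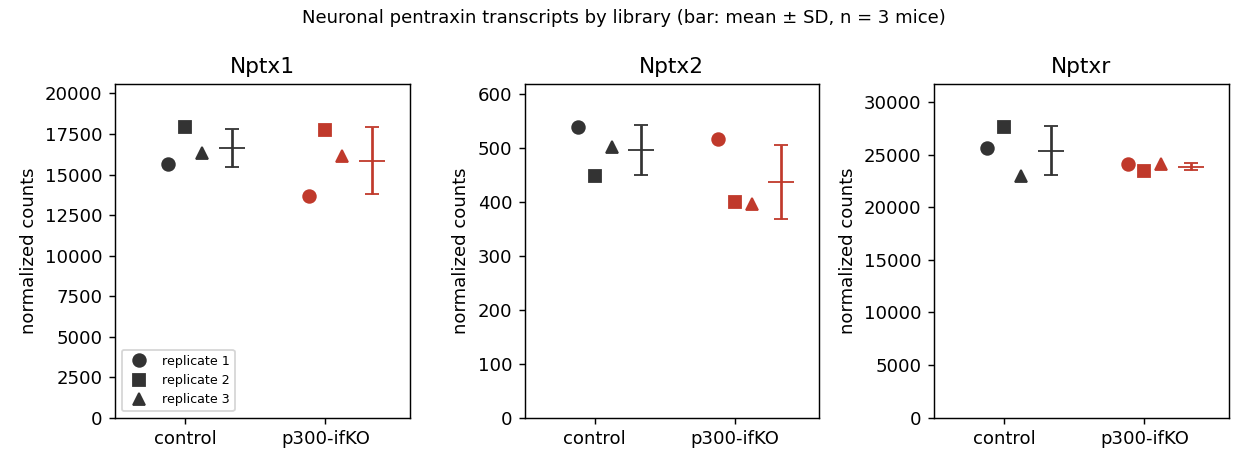
Normalized counts of Nptx1, Nptx2 and Nptxr in each library, on axes that start at 0, with mean ± SD over 3 mice beside the points. The control and p300-ifKO points overlap for each gene, with the p300-ifKO means at 15858, 437 and 23860 against 16619, 497 and 25390 in control mice.

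The spread between mice was larger than counting error for each gene. The coefficient of variation over control mice was 7.05% for Nptx1, 9.27% for Nptx2 and 9.15% for Nptxr. Over p300-ifKO mice it was 13.0%, 15.7% and 1.55% in the same order. Counting error alone amounts to 0.781%, 4.62% and 0.636%. Counting error was largest for Nptx2, which had the fewest reads.

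The part of the deviation fitted from length and GC content was larger for Nptx2 than for the other members. Among the 17054 genes, the exonic length of Nptx2 is at percentile 26.0, that of Nptx1 at 63.6 and that of Nptxr at 63.0. The GC content of Nptx2 (58.3%) is at percentile 92.8, between Nptx1 (79.7) and Nptxr (95.4). The part of its log2 deviation fitted from length and GC content was 0.24 in p300-ifKO replicate 1, 0.046 in replicate 3 and between −0.097 and −0.019 in the other 4 libraries. For Nptx1 and Nptxr this part was between −0.046 and 0.037 in all libraries. The log2 fold changes of the 17054 genes followed length and GC content too, with a rho of −0.44 and 0.32, as a description across genes.

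**Figure D3:**
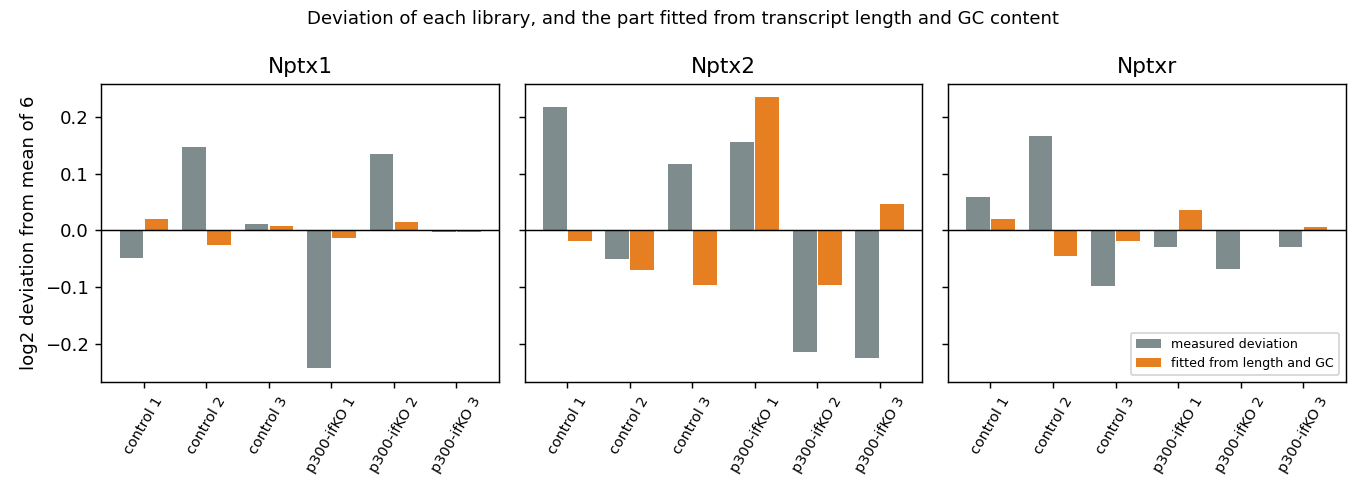
Log2 deviation of each library from the mean of the 6 (gray bars) and the part of it fitted from transcript length and GC content over 17054 genes (orange bars), for each neuronal pentraxin. The fitted part is 0.24 for Nptx2 in p300-ifKO replicate 1 and stays within 0.1 of 0 in the other bars.

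With these offsets taken out, normalized counts of Nptx2 were 546, 470 and 538 in controls and 439, 427 and 384 in p300-ifKOs. All p300-ifKO libraries then lay below all control libraries, as for 3.37% of the 17054 genes. The corrected log2 fold change was −0.31 (SE 0.13, 95% interval −0.57 to −0.055). Its unadjusted p in DESeq2 was 0.0176 and its adjusted p 0.949, so Nptx2 was still not called in a fit that called 0.0117% of genes. An unadjusted p under 0.05 was reached by 2.5% of all genes in that fit. The fit with 1 surrogate variable gave Nptx2 −0.31 (unadjusted p 0.0372 in DESeq2, as for 0.604% of genes under 0.05) and the fit without p300-ifKO replicate 1 gave −0.32 (unadjusted p 0.0398 in DESeq2, as for 0.413%). Both had an adjusted p that rounded to 1 in DESeq2. Each of these 3 fits acted most on p300-ifKO replicate 1, which had the largest offset (0.24) and the surrogate value of largest size (−0.79), so they are not separate lines of evidence. Without p300-ifKO replicate 2 the log2 fold change of Nptx2 was −0.12 (unadjusted p 0.522 in DESeq2). Without replicate 3 it was −0.12 (unadjusted p 0.593 in DESeq2).

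The other members moved less under the same fits. Nptxr had a log2 fold change of −0.12 (SE 0.10) with the offsets and −0.13 with 1 surrogate variable. Nptx1 had −0.069 with the offsets and 0.034 with 1 surrogate variable. The direction of Nptx2 and of Nptxr was the same in all 16 alternatives, from −0.32 to −0.12 and from −0.15 to −0.023. The alternatives reuse the same libraries, so they are not separate lines of evidence.

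**Figure D4:**
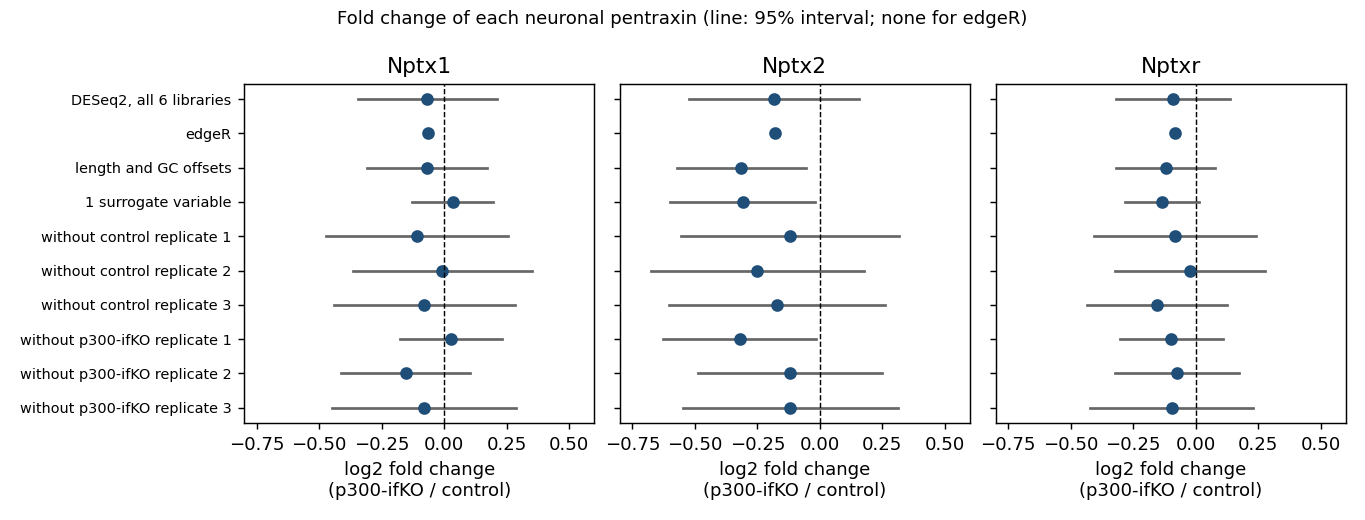
Log2 fold change (p300-ifKO over control) of each neuronal pentraxin in DESeq2 with all libraries, in edgeR, and under length and GC offsets, 1 surrogate variable or omission of 1 library, with 95% intervals as lines (none for edgeR). Intervals of Nptx2 lie below 0 with offsets (−0.57 to −0.055), with 1 surrogate variable (−0.60 to −0.018) and without p300-ifKO replicate 1 (−0.63 to −0.015), and those of Nptx1 and Nptxr include 0 throughout. The interval of Nptx2 includes 0 with all libraries and when any other library was omitted.

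The balance among the members was compared within libraries, where the size factor cancels. The log2 ratio of Nptx2 to Nptx1 (levels per length) was −4.03 ± 0.24 in controls and −4.14 ± 0.40 in p300-ifKOs (SD, n = 3 each). The groups overlapped, and the difference was −0.12 (exact two-sided permutation p = 0.7). The difference was −0.10 for Nptx2 to Nptxr (exact p = 0.8) and −0.012 for Nptxr to Nptx1 (exact p = 1). Adjusted over the 3 ratios, each exact p was 1. With length and GC offsets the difference was −0.24 for Nptx2 to Nptx1 (exact p = 0.2) and −0.20 for Nptx2 to Nptxr (exact p = 0.3). For Nptx2 to Nptx1 it went from −0.34 without p300-ifKO replicate 1 to 0.030 without replicate 2, and for Nptx2 to Nptxr it was between −0.24 and −0.022 over omitted libraries.

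Across the 6 libraries, Nptx1 and Nptx2 tended to opposite directions, but no relation passed a test. Pearson's r between their log2 normalized counts was −0.61 (exact permutation p = 0.175, adjusted over 3 pairs 0.525) and Spearman's rho was −0.54 (exact p = 0.297, adjusted 0.846). Without the 2 libraries farthest from the median of Nptx1, r was −0.66, and for deviations from the group means it was −0.94. Neither of these values was tested, and taking out the group means leaves fewer free values than 6 libraries. After length and GC offsets, r was −0.057 (exact p = 0.933).

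No relation of Nptxr with a ligand passed a test either. With Nptx1, r was 0.27 (exact p = 0.622, adjusted 0.892) and rho −0.029 (exact p = 1). With Nptx2, r was 0.10 (exact p = 0.892, adjusted 0.892) and rho 0.31 (exact p = 0.564, adjusted 0.846). Each r was computed again without the 2 libraries farthest from the median of the ligand. With Nptx1 it was −0.61, with p300-ifKO replicate 1 and control replicate 2 left out. With Nptx2 it was −0.58, with p300-ifKO replicates 2 and 3 left out. Each sign thus rested on the libraries left out, which differed between the pairs.

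**Figure D5:**
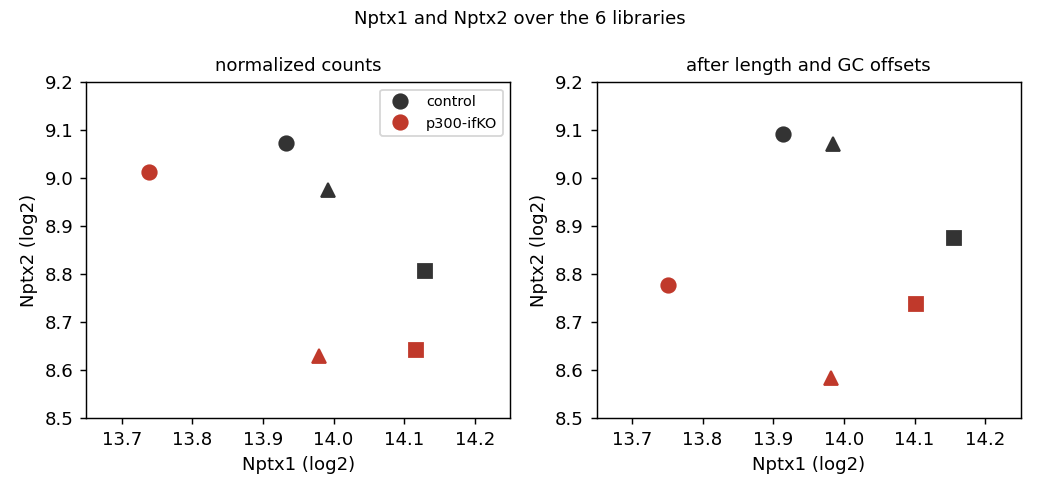
Log2 normalized counts of Nptx2 against Nptx1 in the 6 libraries, as measured (left) and after length and GC offsets (right), with control in dark gray, p300-ifKO in red, and circles, squares and triangles for replicates 1, 2 and 3. The points fall from upper left to lower right on the left (r = −0.61) and not on the right (r = −0.057), where the p300-ifKO points lie below all control points for Nptx2.

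Different genes shared the profile of each member over the 6 libraries, among 12252 genes with a mean of at least 100 normalized counts. The closest to Nptx1 by Pearson's r were Lsm14a (0.997), Sec62 (0.991) and Rbbp5 (0.991), and 507 genes lay above 0.9. The closest to Nptx2 were Pmepa1 (0.973), Camk1g (0.952) and Thsd1 (0.949), with 12 genes above 0.9. Among the closest to Nptxr were Map2k1 (0.979) and Ncs1 (0.977), with 41 genes above 0.9. With 6 libraries that share the length trend, these values are a description of likeness.

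The 4 other pentraxin genes examined were almost absent from this tissue. Apcs, the serum amyloid P component, had 0 reads and Crp, the C-reactive protein, had 1 read in all libraries together. The long pentraxin Ptx3, a secreted pattern recognition protein, had 74 reads in all (log2 fold change 0.40, SE 0.56). Ptx4, a little studied long pentraxin, had 64 (0.77, SE 0.62). Neither was called (adjusted p = 0.991 in DESeq2), and the 3 neuronal members carried nearly all reads of the pentraxins examined.

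The proteins that neuronal pentraxins bind or depend on were read as a list of 12 genes. In DESeq2, 0 of 12 were called, 8 had a fold change below 0 and 4 above, and the median was −0.064 against −0.046 for all genes tested and −0.0044 for those with a mean of at least 100 normalized counts. An unadjusted p under 0.05 was reached by 2 of the 12, C1qa and C1qb, and by 1.32% of all genes. The median was 0.010 with length and GC offsets. Without p300-ifKO replicate 2, 5 of the 12 were called (Gria2, Gria3, C1qa, C1qb and C1qc), and Gpc6 had no adjusted p. In that fit, 7.99% of the 11533 genes with an adjusted p were called.

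Among the receptors, the AMPA receptor subunit genes Gria1 to Gria4 all had fold changes below 0 and none was called. Gria1 had a mean level per length of 198, and Gria2, Gria3 and Gria4 had 58.5, 27.0 and 11.7. The range of Gria1 over the libraries overlapped that of Nptxr when the level of Nptxr used its full exonic length, including the bases shared with Npcd. The log2 fold changes were −0.066 (SE 0.12), −0.23 (SE 0.27), −0.31 (SE 0.17) and −0.27 (SE 0.18). Normalized counts of Gria3 were 7283, 7404 and 7400 in controls and 4726, 7143 and 5992 in p300-ifKOs. It was the subunit whose groups did not overlap, as seen for 3.42% of all genes. With length and GC offsets, the values of the 4 genes were 0.010, 0.0097, −0.11 and −0.16, so that the signs of Gria1 and Gria2 turned. Gria2 also turned to 0.028 without p300-ifKO replicate 1.

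Genes that act on the release or processing of neuronal pentraxins were not called either. Adam17, which encodes the protease that sheds Nptxr, had a log2 fold change of −0.0061 (SE 0.20), with a sign that turned in 6 of the 16 alternatives. Gpc4, an astrocyte glypican that promotes the release of Nptx1, had −0.061 (SE 0.15), and its relative Gpc6 had −0.60 (SE 0.61) on 388 reads. Ptprd, a neuronal receptor phosphatase for Gpc4, had −0.34 (SE 0.23), which was −0.050 with offsets and −0.024 with 1 surrogate variable. Rcn2, a reticulocalbin of the secretory pathway that binds neuronal pentraxins, had 0.0043 (SE 0.12).

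The complement genes C1qa, C1qb and C1qc, whose products bind neuronal pentraxins, had fold changes above 0 without being called. Normalized counts of C1qa were 1023, 1085 and 911 in controls and 1885, 1003 and 1381 in p300-ifKOs. Replicates 1 and 3 of p300-ifKO lay above all control libraries and replicate 2 lay within their range. The log2 fold changes of C1qa, C1qb and C1qc were 0.50 (SE 0.23), 0.47 (SE 0.24) and 0.39 (SE 0.21), and 0.26, 0.24 and 0.22 with offsets. Without p300-ifKO replicate 2 they were 0.70, 0.67 and 0.56 (adjusted p = 0.0109, 0.0204 and 0.0254 in DESeq2). Without p300-ifKO replicate 1 they were 0.24, 0.17 and 0.15, and with 1 surrogate variable 0.14, 0.078 and 0.081, and none was called. The summed counts of 5 other microglial markers were 5375 to 5726 in control and 5686 to 6011 in p300-ifKO mice. Of these markers, 3 had fold changes above 0 and 2 below, from −0.090 (Cx3cr1) to 0.56 (Aif1), with a median of 0.11. The part of microglia in the values of the complement genes was not tested.

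Activity-regulated genes, the class to which Nptx2 belongs, were read as a list of 12 others. In DESeq2, 0 were called (0.0061% of all genes tested) and 0 had an unadjusted p under 0.05 (1.32% of all genes tested). A fold change below 0 was seen for 9 and above 0 for 3, where 50.7% of genes with a mean of at least 100 lay below 0. The median was −0.085, against −0.046 for all genes tested. The lowest was Pcsk1, a proprotein convertase (−0.49, SE 0.30), and the highest Junb, an AP-1 transcription factor (0.21, SE 0.17). The neurotrophin gene Bdnf had −0.25 (SE 0.15) and Inhba, an activin subunit, had −0.37 (SE 0.30). Pcsk1 was −0.16 and Inhba −0.030 with 1 surrogate variable, and Junb was 0.037 with offsets. Without p300-ifKO replicate 1, Pcsk1 was −0.22, Junb 0.12 and Inhba −0.13. With p300-ifKO replicate 1 left out the median was 0.016, with replicate 2 left out −0.31 and with replicate 3 left out 0.011. Its size and sign thus rested on single libraries, and the median was 0.068 with 1 surrogate variable.

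The makeup of the tissue was read beside Nptx2 through marker genes. The 5 markers of dentate granule cells all had fold changes below 0 (median −0.11), with summed counts of 6376 to 8125 in control and 6308 to 6642 in p300-ifKO mice. Counts of 6 excitatory neuron markers summed to 61462 to 66797 and 59308 to 67283, with 3 fold changes above 0 and 3 below (median 0.017). The 8 interneuron markers summed to 23314 to 26677 and 22337 to 25390, with 3 fold changes above 0 and 5 below (median −0.057). The 5 oligodendrocyte markers all had fold changes above 0 (median 0.22). The 4 choroid plexus markers all had fold changes above 0 (median 0.41), with summed counts of 726 to 3731 in controls and 1368 to 5426 in p300-ifKOs. Of the 5 perineuronal net genes, 4 had fold changes below 0 (median −0.23). The CA1, CA3, astrocyte, endothelium and thalamus lists each held fold changes in both directions. Their medians were −0.16, −0.069, −0.036, −0.16 and −0.14. None of these markers was called with all libraries. Without p300-ifKO replicate 2, 2 excitatory neuron, 2 interneuron, 1 perineuronal net, 1 dentate granule cell, 1 CA1 and 1 endothelium marker were called. In that fit, 7.99% of the 11533 genes with an adjusted p were called. The part of cell makeup in the values of the neuronal pentraxins was not tested.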

How the data were processed

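RNA-seq libraries from the hippocampus of 6 mice, 3 per genotype, were compared. The authors deposited raw counts of reads per gene, from single-end 50 bp reads trimmed with Trim Galore (version 0.6.4), aligned to GRCm38 with STAR (version 2.6.1), filtered on mapping quality and counted with Rsubread on Ensembl exons. Whether strand was used is not given in the sources used here. Total counts were 23151568 to 28433823 per library.

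The test was the two-sided Wald test of DESeq2 (version 1.42.0, R 4.3.3), the tool of the study, adjusted over all genes (Benjamini-Hochberg, threshold 0.05), with the edgeR quasi-likelihood test (version 4.0.16) beside it. Symbols, coordinates and exons came from GENCODE release M21 on the same build. The alternatives were edgeR without a filter, limma-voom (version 3.58.1), TMM factors, a minimum of 10 counts in 3 libraries, Cook or independent filtering off, a replicate block, 1 surrogate variable (sva version 3.50.0), smooth length and GC offsets per library (mgcv version 1.9.3, above a mean of 10 normalized counts) and leaving out each library. A shorter length of Nptxr, without bases shared with Npcd, was chosen after seeing the data. The DESeq2 and edgeR tests were tested on simulated data. The simulated libraries held no trend with length or GC content, so they do not show how the tests behave under that trend.

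Named genes were the 3 neuronal pentraxins, Ep300, Crebbp, Esr1 and Arsi as checks of the labels, 4 other pentraxins, partner and activity gene lists, and the 3 genes closest to each neuronal pentraxin by Pearson correlation of log2(normalized count + 1) over the 6 libraries, among genes with a mean of at least 100. Of these closest genes, 1 is not reported here. The members and lists were chosen with earlier results of these data known.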

Additional observations from a re-analysis of the deposited data

How the results depend on the processing

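Of the 16 alternatives to the DESeq2 fit, 14 kept the count of called genes within 1.5 times of 2. It was 4 with the replicate block and from 2 to 921 when a library was left out, with 921 without p300-ifKO replicate 2. Nptx2 and Nptxr kept their direction in all 16, and no alternative called a neuronal pentraxin. Turning Cook or independent filtering off leaves the fold change as it is, so those fits could not change a direction. With the replicate block, Nptx1, Nptx2 and Nptxr had −0.074, −0.19 and −0.086. The deviations of same-numbered mice had an r of 0.27, −0.28 and 0.14 for numbers 1, 2 and 3, and the numbers were not read as pairs. The library names carry the same numbers in both groups. With 3 mice per group, these r values can neither show nor exclude pairs.

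Nptx1 turned to 0.034 with 1 surrogate variable, and ranged from −0.15 to 0.027 when a library was left out. Ep300 was called with 1 surrogate variable (−0.48, adjusted p 0.00127 in DESeq2) and without p300-ifKO replicate 2 (−1.36, adjusted p 0.000369), with a range over omitted libraries of −1.36 to −0.66. Over omitted libraries the difference in log2 ratio ranged from −0.34 to 0.030 for Nptx2 to Nptx1 and from −0.12 to 0.087 for Nptxr to Nptx1. The r of Nptx1 and Nptxr turned to −0.61 without the 2 libraries farthest from the median of the ligand. The r of Nptx2 and Nptxr turned to −0.58 in that way and to −0.21 as deviations from group means.

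Among the partners, Gria1 turned to 0.010 and Gria2 to 0.0097 with offsets. Gria2 had 0.12 with 1 surrogate variable and −0.56 to 0.028 over omitted libraries. Adam17 had 0.0043 in edgeR without a filter, 0.0044 with TMM factors, 0.19 with 1 surrogate variable, 0.12 with offsets and −0.12 to 0.16 over omitted libraries. Gpc6 had 0.12 with 1 surrogate variable. Over omitted libraries Gpc4 ranged from −0.15 to 0.049 and Rcn2 from −0.050 to 0.057. The cause of these changes was not tested. With 3 mice per group, the intervals of the neuronal pentraxins bound the precision, and a missed threshold does not show that their levels were equal.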
